A study of Rattus norvegicus with 170 samples.

Results

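Oxidative phosphorylation is carried out by 5 protein complexes of the inner mitochondrial membrane, and most of their subunits are encoded in the nucleus. The 87 genes described here were taken by symbol from the 24113 genes of the data: those starting with Ndufa, Ndufb, Ndufc, Ndufs, Ndufv, Uqcr, Cox4, Cox5, Cox6, Cox7, Cox8 or Atp5, and Sdha, Sdhb, Sdhc and Sdhd, without the Ndufaf assembly factors. By symbol, 40 belong to complex I, 4 to complex II, 7 to complex III, 18 to complex IV and 18 to complex V. The rule also took genes that are not standing subunits, among them Cox4nb, Atp5sl, Atp5s, Cox7a2l and Ndufa4l2, and it placed Ndufa4, known as a subunit of complex IV, with complex I.

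Complex I (NADH dehydrogenase) and complex II (succinate dehydrogenase) pass electrons from nutrient breakdown to ubiquinone, complex III (the cytochrome bc1 complex) passes them to cytochrome c, and complex IV (cytochrome c oxidase) hands them to oxygen. Complexes I, III and IV pump protons, and complex V (ATP synthase) uses the return of those protons to make ATP. In beta cells the ATP made from glucose closes potassium channels of the cell membrane and so starts insulin release.

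The cells come from pancreatic islets of wild type Sprague Dawley rats, male and 8 weeks old. Whole hand-picked islets spent 48 h at 5.5 mM glucose in RPMI1640 with DMSO alone (0.1%) or with GNF4877 (3 µM), which the series title links to inhibition of the kinases Dyrk1a and GSK3b. After trypsin, single cells were caught on Fluidigm C1 chips, and RNA was sequenced from 86 DMSO and 84 GNF4877 cells, with SMARTer and Nextera XT, as single 50 base reads and a 96-well plate per lane. The labels name no animal or culture, and each treatment is read as 1 sample, so cells are not replicates, every SD is over cells, and treatment, chip and sequencing lane cannot be told apart. Values are RPM, reads scaled to the mapped reads of each cell, and mapped reads per cell ran from 241604 to 2499138, with a median of 1208304 in DMSO cells and 1414725 in GNF4877 cells.

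Beta cells were those with Ins1 of 1000 RPM or more and Gcg below it, and alpha cells those with the reverse. This gave 56 beta and 5 alpha cells under DMSO and 58 beta and 18 alpha cells under GNF4877. A further 22 DMSO cells and 1 GNF4877 cell passed for both hormones, and 3 DMSO and 7 GNF4877 cells for neither. Other markers followed the classes: the summed mean of 7 beta cell markers was 24884 RPM in DMSO beta and 312 RPM in DMSO alpha cells, and 17966 RPM and 128 RPM under GNF4877. The most abundant of them was Ins2. Mafa, a beta cell transcription factor, was read in only 3 DMSO beta cells and in no GNF4877 beta cell. The 7 alpha cell markers summed to 1307 RPM in DMSO beta and 4667 RPM in DMSO alpha cells, and to 1841 RPM and 3974 RPM under GNF4877. Gc and Pcsk2 were the most abundant of these. The highest hormone limit tried, named below where it moves a value, adds DMSO cells 21, 57 and 65, which passed for both hormones, to the DMSO alpha cells.

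Marker lists of other cells were read too. Delta cell markers, with Sst, summed to 117 RPM in DMSO beta, 380 RPM in DMSO alpha, 284 RPM in GNF4877 beta and 167 RPM in GNF4877 alpha cells, and Sst reached 1000 RPM in 1 cell of each of the first 3, among them DMSO alpha cell 33, with 1672 RPM. PP cell markers, with Ppy, summed to 2998, 19.1, 759 and 1313 RPM in the same order. Duct markers, keratins for the most part, summed to 465, 403, 1206 and 544 RPM, and reached 1000 RPM in 4 DMSO and 26 GNF4877 beta cells. Acinar markers summed to 2.83, 4.73, 0.336 and 0.263 RPM, endothelial markers to 15.3, 0, 4.0003 and 2.56 RPM, and immune markers to 5.20, 0.660, 61.7 and 11.6 RPM.

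Some cells stood apart. In 3 DMSO beta cells and 1 GNF4877 beta cell under 20% of mapped reads fell on listed transcripts: 8.99% in DMSO cell 48, 4.65% in DMSO cell 73, 18.9% in DMSO cell 80 and 3.03% in GNF4877 cell 2. GNF4877 beta cell 41 had by far the highest summed value of the 87 genes. Markers of mesenchymal cells, such as Col1a1 and Sparc, summed to 455 RPM in DMSO beta cells and 0.472 RPM in GNF4877 beta cells, with 14591 RPM in DMSO cell 46 and 10770 RPM in DMSO cell 24. In alpha cells under GNF4877 they averaged 201 RPM, nearly all of it from cell 42, which held 3616 RPM. The PP cell hormone gene Ppy averaged 2889 RPM in DMSO beta and 759 RPM in GNF4877 beta cells, and reached 1000 RPM in 2 cells of each and in 2 GNF4877 alpha cells. All 9 immediate early genes read, Fos and Egr1 among them, were 2-fold or more higher in DMSO alpha than in DMSO beta cells. Of all genes 7.08% were. All 9 were also 2-fold or more lower in GNF4877 than in DMSO alpha cells, where 12.4% of all genes were. Their summed mean was 2771 RPM in DMSO alpha cells, 671 RPM in GNF4877 alpha cells, 681 RPM in DMSO beta cells and 507 RPM in GNF4877 beta cells. The part of any of these in the results was not tested.

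The 87 genes together took a similar share of reads in beta cells of both treatments and a smaller one in alpha cells. Their sum was 14192 ± 3997 RPM (SD, n = 56 cells) in DMSO beta cells, with a lowest value of 694, a median of 14560 and a highest of 22735. In GNF4877 beta cells it was 15119 ± 5304 RPM (n = 58), with 154, 14534 and 44379. The medians lie close together and the ranges overlap. Without the cells of low listed share the means were 14891 ± 2749 and 15382 ± 4957 RPM, and without cell 41 the GNF4877 mean was 14606 ± 3617 RPM.

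The 5 DMSO alpha cells had sums of 10104, 6163, 6503, 8593 and 9242 RPM in cells 33, 67, 89, 90 and 94, a mean of 8121 ± 1722. The 18 GNF4877 alpha cells averaged 9367 ± 2718 RPM, from 5985 through a median of 8557 to 16402, the last in cell 42, and 8954 ± 2138 without it. Most beta cells lie above every DMSO alpha cell, but the ranges overlap. Hormone transcripts take far more of an alpha cell's reads: Ins1, Ins2, Gcg, Sst, Ppy, Pyy, Iapp and Ttr made up 7.18% of mapped reads in DMSO beta, 4.47% in GNF4877 beta, 38.7% in DMSO alpha and 28.6% in GNF4877 alpha cells. Scaled to listed reads without those 8 genes, the mean sums were 17660 in DMSO beta, 17250 in GNF4877 beta, 14282 in DMSO alpha and 13965 in GNF4877 alpha cells. On that scale alpha cells remain lower on average, by less. The number of genes read per cell averaged 8270 in DMSO beta, 6849 in GNF4877 beta, 7241 in DMSO alpha and 6072 in GNF4877 alpha cells.

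**Figure D1:**
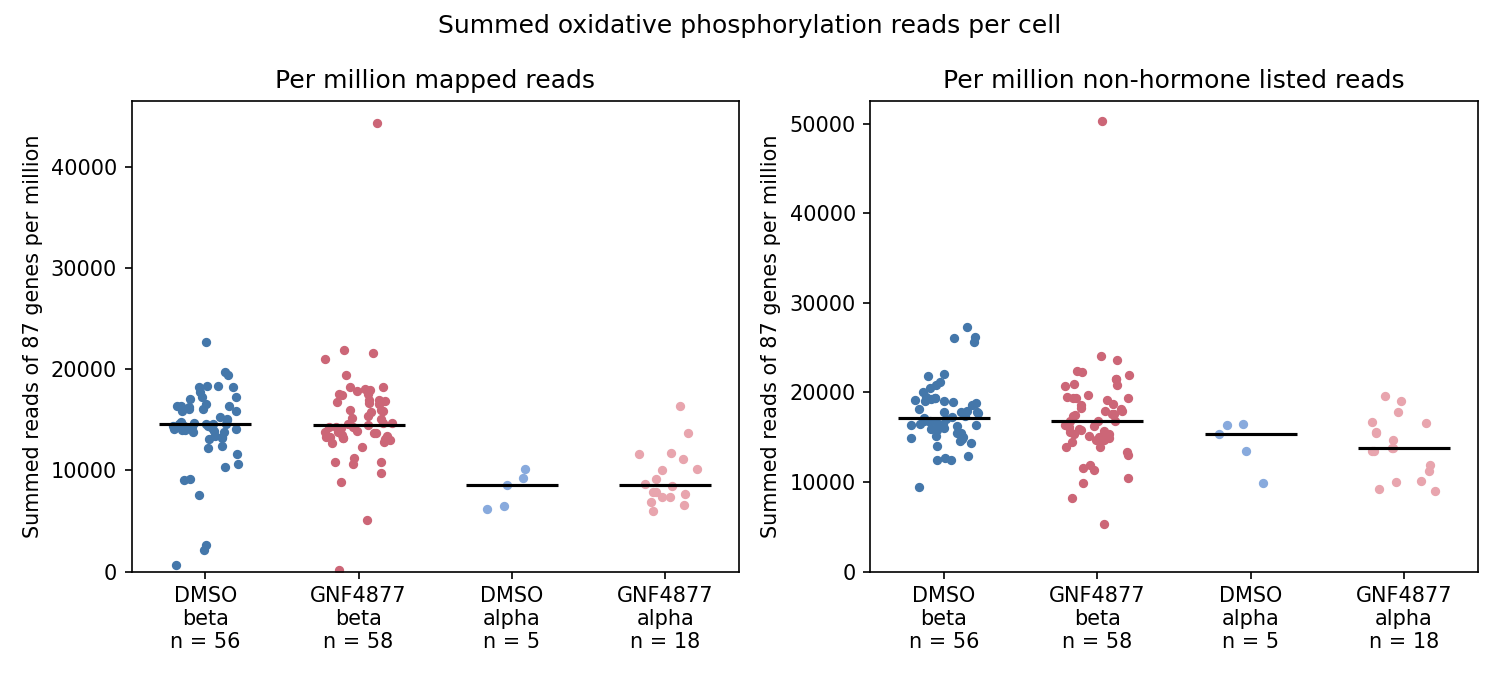
Summed reads of the 87 genes in each cell, scaled to mapped reads (left) and to listed reads without hormone genes (right), for beta and alpha cells of each treatment. Points are cells and lines are medians. Alpha cells sit lower than most beta cells on the left and closer to them on the right.

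The split of reads between complexes was much the same in the 4 groups. Complex I took 34.8% of the summed mean in DMSO beta, 33.7% in GNF4877 beta, 39.4% in DMSO alpha and 34.1% in GNF4877 alpha cells. Complex V took 35.2%, 36.4%, 33.6% and 36.6% in the same order. Complex IV took 15.8%, 16.1%, 14.045% and 15.4%, complex III 7.08%, 7.76%, 7.80% and 8.34%, and complex II 7.22%, 6.09%, 5.09% and 5.50%. Complexes II and IV took a lower share in alpha than in beta cells under both treatments, and complexes I and III a higher one. Across cells that share a chip and differ in depth, the log2 sums of complexes I and V on the scale without hormones had r = 0.77 in GNF4877 beta cells (n = 58), 0.71 without the cell of low listed share (n = 57) and 0.62 without cell 41 as well (n = 56). In DMSO beta cells r was -0.12 (n = 56), 0.45 without cell 48 (n = 55) and 0.65 without the 3 cells of low listed share (n = 53). In GNF4877 alpha cells it was 0.49 (n = 18).

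Most members were read in most cells. The median over the 87 genes of the share of cells with a read was 96.4% in DMSO beta, 96.6% in GNF4877 beta, 100% in DMSO alpha and 88.9% in GNF4877 alpha cells. Of the 87, Cox8c alone was read in no beta or alpha cell. Cox8b, the Cox8 isoform of heart and skeletal muscle, was read in 1 GNF4877 beta cell only, and so was the pseudogene Cox6c-ps1. Cox6b2, the testis isoform, was read in 2 DMSO beta cells and 1 GNF4877 alpha cell. For Cox8c, read in 0 cells, the 95% Clopper-Pearson interval of the share of cells with a read ends at 6.38% for the 56 DMSO beta cells, 6.16% for the 58 GNF4877 beta cells, 52.2% for the 5 DMSO alpha cells and 18.5% for the 18 GNF4877 alpha cells. A cell without a read may still hold the transcript. All intervals here cover counting error only, since reads copied by PCR without molecular identifiers are not separate molecules.

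The comparison of GNF4877 with DMSO beta cells asks whether treatment went with a different level of these genes in the cells that make insulin. Ratios are log2 of mean RPM plus 1 over mean RPM plus 1, and a gene was counted as higher or lower at 2-fold or more. Of the 87 genes 1 was higher, Cox6a2, where 6.48% of all genes were, and 1 was lower, Cox4i2, where 10.5% of all genes were. The median ratio of the 87 was 0.03, and 0.06 without 4 genes that had no read in 1 or both groups. Among the 79 that averaged 10 RPM or more it was 0.06, beside -0.02 for all 8541 genes that did. The 79 held 1 gene 2-fold higher and 1 lower, beside 8.61% and 11.7% of the 8541. On the scale without hormones 1 of the 87 was higher, where 6.499% of all genes were, and 7 were lower, where 12.3% were: Cox4i2, Ndufa3, Ndufa4l2, Ndufb3, Ndufb8, Sdha and Uqcr11. Of these 7, Cox4i2, Ndufa3 and Ndufa4l2 were still lower once the cells of low listed share were left out, where 12.3% of all genes were. By difference of mean log2 values 2 were higher, where 1.05% of all genes were, and 4 lower, where 12.1% were. With 1 cell left out the number lower was 0 without DMSO cell 23 and 2 at most without any other. Leaving hormone reads out moved the all-gene median by -0.08, and relative to all genes the members lay at 0.08 on the RPM scale and 0.10 without hormones.

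The comparison of alpha with beta cells was made within each treatment. Under DMSO none of the 87 genes was 2-fold higher in alpha cells, where 7.08% of all genes were, and 28 were lower, where 26.7% of all genes were. Under GNF4877 2 were higher, where 7.79% were, and 21 were lower, where 19.1% were. On the scale without hormones 2 were higher and 18 lower under DMSO, where 11.3% and 23.2% of all genes were, and 2 higher and 11 lower under GNF4877, where 10.5% and 16.8% were. By difference of mean log2 values 1 was higher and 29 lower under DMSO, where 5.81% and 16.3% of all genes were, and none higher and 47 lower under GNF4877, where 1.83% and 10.7% were. Leaving out 1 cell gave 1 higher under DMSO without cell 67, 89 or 94 and none higher under GNF4877 without cell 42. The median ratio was -0.67 under DMSO and -0.61 under GNF4877. Without genes that had no read in a group, 25 of 80 were lower under DMSO, with a median of -0.69, and 21 of 83 under GNF4877, with a median of -0.63. Among members that averaged 10 RPM or more, 26 of 79 were lower under DMSO, beside 37.3% of all genes that did, and 20 of 78 under GNF4877, beside 28.1%. In that set the median of the members was -0.72 under DMSO, beside -0.54 for all genes, and -0.72 under GNF4877, beside -0.33 for all genes. Leaving hormone reads out moved the all-gene median by 0.50 under DMSO and 0.34 under GNF4877. Relative to all genes, the members lay at -0.19 and -0.38 on the RPM scale and at -0.20 and -0.34 on the scale without hormones. For ratios of mean RPM the shares of lower members are thus near those of genes at large, and the middle of the list lies below the middle of all genes. By mean log2 values the shares are above those of all genes, which include genes without a read that cannot be counted as lower. No share among genes of 10 RPM or more is given on that measure. The median of the 87 was then -0.54 under DMSO, beside -0.52 for all genes that averaged 10 RPM or more. Under GNF4877 it was -1.07, beside -0.46.

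Cells of the 2 treatments are separate, so their alpha over beta ratios can be set side by side. The members' ratios had r = 0.51 between treatments across 87 genes, and 0.54 across the 78 that averaged 10 RPM or more in both, beside 0.29 across the 7030 such genes of the table. Genes are not independent replicates. Both sets of members hold Cox6a2, at -5.22 under DMSO and -2.94 under GNF4877. It had no read in DMSO alpha cells, so its DMSO ratio depends on the 1 RPM added. The 87 also hold Cox4i2. Cox6a2 and Cox4i2 had the lowest ratios of the 87 under both treatments. The r was not computed without them, so how far it rests on them is not known. The plot of these ratios leaves Cox6a2 out. Members 2-fold or more lower in alpha cells under both treatments numbered 10 (11.5% of the 87, beside 10.2% of all genes): Atp5g1, Atp5sl, Cox4i2, Cox5a, Cox6a2, Cox7b, Ndufs7, Ndufv3, Sdha and Sdhd. On the scale without hormones there were 8 (9.20%, beside 8.15% of all genes), the same genes without Cox7b and Sdha. Of the 78 members that averaged 10 RPM or more in both, 9 were lower by RPM (11.5%, beside 14.5% of the 7030 genes). With a hormone limit of 100 RPM, Cox4i2 and Atp5sl had the other sign under DMSO. None of the 87 was 2-fold higher under both on either scale, where 1.62% of all genes were by RPM and 2.81% without hormones.

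**Figure D2:**
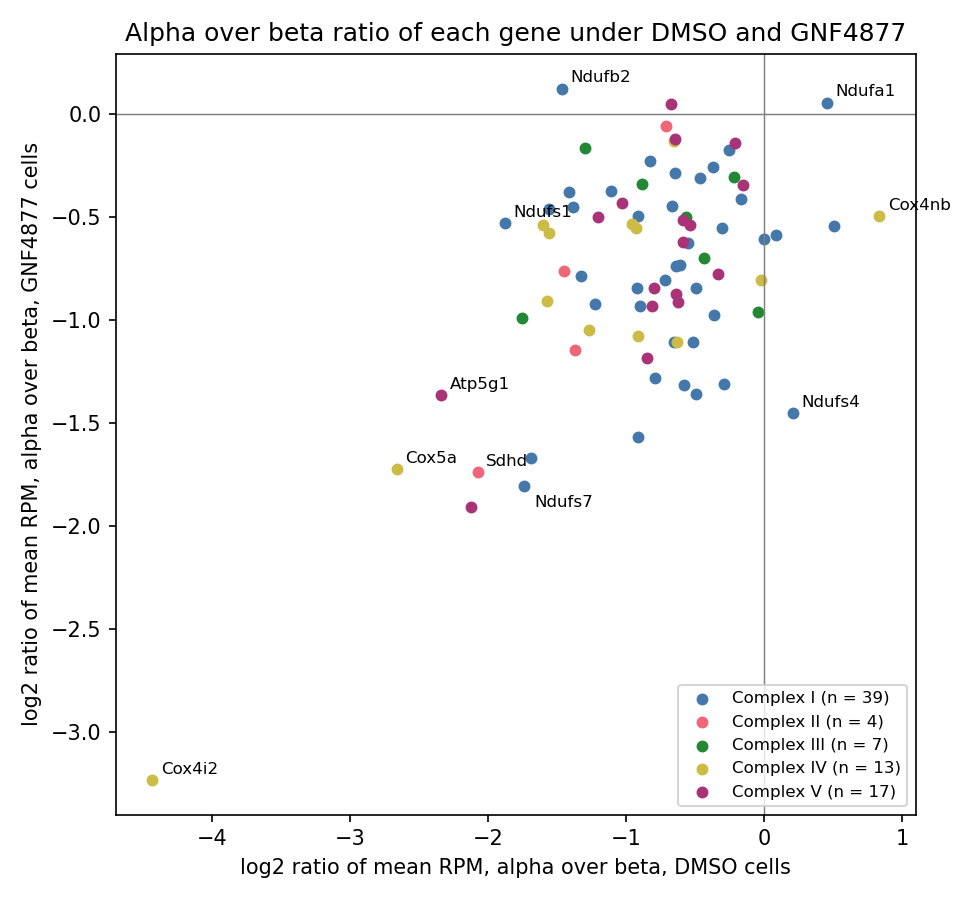
The log2 ratio of mean RPM, alpha over beta, of each gene in DMSO cells (horizontal) and in GNF4877 cells (vertical), coloured by complex. Points are the 80 genes with reads in all groups, and most lie below 0 on both axes, as far as -4.43 and -3.23 for Cox4i2.

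The comparison of GNF4877 with DMSO alpha cells rests on 5 DMSO cells. Of the 87 genes 9 were higher, where 18.5% of all genes were, and 4 were lower, where 12.4% were, and 4 of the 9 had no read in DMSO alpha cells. By difference of mean log2 values the balance was the other way, with 5 higher, where 5.32% of all genes were, and 28 lower, where 15.3% were. The median of the 87 was then -0.32, beside -0.63 for all genes that averaged 10 RPM or more. Without hormones 8 were higher and 8 lower, where 17.3% and 15.1% of all genes were. The number higher was 18 without DMSO cell 33, which held the Sst reads, 14 without DMSO cell 90, 16 without DMSO cell 94 and 17 without cells with Sst or Ppy of 1000 RPM, and the number lower was 2 without GNF4877 cell 9, 69 or 77. The median ratio was 0.10, and 0.10 also for the 76 members that averaged 10 RPM or more, beside 0.12 for all genes that did. In that set 5 members were higher, beside 30.1% of all genes, and 4 were lower, beside 24% of them. Leaving hormone reads out moved the all-gene median by -0.23, and relative to all genes the members lay at -0.02 on the RPM scale and -0.03 without hormones. Members past 2-fold are described below with their complexes, though not all of them.

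Complex I takes electrons from NADH. In beta cells its 40 genes had a median ratio, GNF4877 over DMSO, of 0.03 on the RPM scale, with 24 above and 16 below 0. On the scale without hormones the median was -0.02, with 17 above and 23 below. The alpha over beta medians were -0.65 under DMSO and -0.62 under GNF4877, and -0.17 and -0.32 without hormones. The GNF4877 over DMSO median in alpha cells was -0.12, and -0.30 without hormones.

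Ndufa3, an accessory subunit, was the lowest complex I gene in treated beta cells. Its values ran from 0 through a median of 92.7 to 210 RPM in DMSO beta cells and from 0 through 42.7 to 138 RPM in GNF4877 beta cells. Most DMSO cells lie above the GNF4877 median, though the ranges overlap. The means of 85.6 ± 44.95 and 42.6 ± 29.1 RPM gave a log2 ratio of -0.99. In alpha cells its values under DMSO were 33.98, 21.1, 74.9, 26.7 and 70.9 RPM in cells 33, 67, 89, 90 and 94, and under GNF4877 they ran from 0 through 21.9 to 54.7 RPM. The log2 ratio there was -1.02, with 3 of the DMSO cells within the GNF4877 range and cells 89 and 94 above it, and was -0.78 without cell 89 and -0.80 with 10 RPM added in place of 1. The beta cell ratio was -1.05 without GNF4877 cell 46. Its alpha over beta ratios, -0.90 under DMSO and -0.93 under GNF4877, were -1.15 without DMSO cell 89 and -1.06 without GNF4877 cell 58.

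Ndufb10, also accessory, had a median of 186 RPM in DMSO beta and 76.3 RPM in GNF4877 beta cells, and a log2 ratio of means of -0.76. Ndufb11 stood on the other side, with values from 0 through 222 to 804 RPM in DMSO beta cells and from 3.08 through 419 to 858 RPM in GNF4877 beta cells, and a log2 ratio of 0.75. The ranges of both genes overlap between treatments. In alpha cells their ratios were -0.86 and 0.87, which became -1.05 without DMSO cell 90 and 1.01 without DMSO cell 89. Ndufb8 and Ndufa4 had the most reads of the genes placed with complex I in DMSO beta cells, with means of 400 ± 194 and 298 ± 172 RPM. Their log2 ratios in beta cells were -0.47 and 0.01. Without DMSO cell 33 the alpha over beta ratio of Ndufa4 under DMSO, -0.79, was -1.17. Ndufb4l1 and Ndufa4l2 had the fewest, 2.54 and 1.51 RPM. Gene lengths are not used, so levels are not ranked between genes.

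Several core subunits, some of which carry the flavin or iron-sulphur clusters, were read unevenly from cell to cell. Ndufs1 ranged from 0 through a median of 75.1 to 401 RPM in DMSO beta cells and from 0 through 107 to 945 RPM in GNF4877 beta cells. The log2 ratio of means was 0.75, and the ranges overlap. In DMSO alpha cells Ndufs1 stood at 16.6, 6.26, 0, 94.8 and 38.9 RPM in cells 33, 67, 89, 90 and 94. GNF4877 alpha cells ran from 0 through a median of 4.07 to 1354 RPM, a log2 ratio of 2.10 that was 1.05 without cell 77, which held the highest value. Without DMSO cell 90 it was 3.07. The median GNF4877 alpha cell is lower than that of DMSO, while the mean is higher, and the difference of mean log2 values was -0.10. The alpha over beta ratios were -1.88 under DMSO, -2.85 without cell 90, and -0.53 under GNF4877, -1.58 without cell 77.

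Ndufs3 stood at 63.6, 39.9, 235, 29.6 and 0 RPM in DMSO alpha cells 33, 67, 89, 90 and 94, and from 0 through a median of 3.57 to 393 RPM in GNF4877 alpha cells. The log2 ratio of -1.02 became 0.11 without DMSO cell 89 and -2.23 without GNF4877 cell 42, so 1 cell decides its direction. Its alpha over beta ratio under DMSO, 0.51, was -0.61 without cell 89, and under GNF4877, -0.54, it was -1.76 without cell 42. In beta cells its ratio between treatments was 0.03.

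Ndufs7 was lower in alpha than in beta cells under both treatments. Its mean was 97.7 ± 69.6 RPM in DMSO beta and 96.2 ± 107 RPM in GNF4877 beta cells, and the DMSO alpha cells stood at 102, 34.4, 0, 5.92 and 0 RPM in cells 33, 67, 89, 90 and 94. GNF4877 alpha cells ran from 0 through 13.3 to 145 RPM. All alpha cells lie within the range of beta cells, whose medians were 86.4 and 60.04 RPM. The log2 ratios were -1.74 under DMSO and -1.80 under GNF4877, and -1.22 and -1.33 without hormones. Without cell 33 the DMSO ratio was -3.15, and the ratio between treatments in alpha cells went from -0.08 to 1.33.

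The core subunits Ndufs8, Ndufv1 and Ndufv2 had beta cell ratios between treatments of 0.01, -0.14 and 0.11. Their alpha over beta ratios were -0.58, -0.92 and -0.31 under DMSO and -1.32, -0.85 and -0.55 under GNF4877. Ndufv1 in DMSO alpha cells rests on cell 33, which had 166 RPM, with 27.04 RPM or less in the rest. Without cell 33 its alpha over beta ratio under DMSO was -3.24 and its ratio between treatments in alpha cells went from -0.06 to 2.26, and without cell 42 its ratio under GNF4877 was -1.57. Without DMSO cell 67 the DMSO ratio of Ndufs8 was -1.04.

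Ndufs4, an accessory subunit, stood at 441 RPM in DMSO alpha cell 94 and at 1.74, 3.91, 0 and 11.8 RPM in cells 33, 67, 89 and 90. In GNF4877 alpha cells it ran from 0 through 1.46 to 141 RPM. Cell 94 lies above every GNF4877 alpha cell and the other 4 lie within their range. The log2 ratio between treatments of -1.33 became 2.78 without cell 94 and -0.33 by mean log2 values, and the alpha over beta ratio under DMSO went from 0.21 to -3.90. Under GNF4877 it was -1.45.

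Ndufa2 was the lowest member in treated alpha cells. It stood at 60.996, 147, 131, 104 and 52.8 RPM in DMSO alpha cells 33, 67, 89, 90 and 94, and from 0 through 37.3 to 118 RPM under GNF4877. The DMSO cells all lie above the GNF4877 median, and 3 of them within its range. The log2 ratio was -1.45, and no single cell brought it above -1.27. Ndufb2 lay on the other side at 1.15, with means of 56.7 ± 42.2 and 127 ± 65.9 RPM and overlapping ranges, and at 0.89 without DMSO cell 90 and 0.44 with the highest hormone limit tried.

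Ndufv3 was lower in alpha cells under both treatments. Its means were 205 ± 130 RPM in DMSO beta, 62.9 ± 71.8 RPM in DMSO alpha, 163 ± 120 RPM in GNF4877 beta and 50.5 ± 66.6 RPM in GNF4877 alpha cells. The ratios were -1.69, -2.41 without DMSO cell 94, and -1.67, and the ranges overlap. Its 2 transcripts in the table were both lower in alpha cells, though reads common to both may be split between them. Ndufa1 was among the highest in that comparison, at 0.46 and 0.06, and the 5 DMSO alpha cells, at 279, 237, 217, 210 and 257 RPM, lay close together and within the beta range of 0 to 375 RPM. Ndufa9 stood at 0.09 under DMSO and -0.59 under GNF4877.

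The remaining complex I genes are Ndufa4, Ndufa5, Ndufa6, Ndufa7, Ndufa8, Ndufa10, Ndufa10l1, Ndufa11, Ndufa12, Ndufa13, Ndufab1, Ndufb3, Ndufb4, Ndufb4l1, Ndufb5, Ndufb6, Ndufb7, Ndufb8, Ndufb9, Ndufc1, Ndufc2, Ndufs5 and Ndufs6. On the RPM scale none of them passed 2-fold between treatments in either cell class, while without hormones Ndufb3 and Ndufb8 were lower in treated beta cells, at -1.43 and -1.08, and Ndufb9 in treated alpha cells, at -1.12. Against beta cells Ndufa5, Ndufa7, Ndufa11, Ndufa13 and Ndufb5, with Ndufb2 above, were 2-fold or more lower in alpha cells under DMSO alone, and Ndufa4, Ndufa8, Ndufb6, Ndufb7 and Ndufb9 under GNF4877 alone. The difference between treatments was not tested. Ndufa10 and Ndufa10l1, Ndufb4 and Ndufb4l1, and the pair of Ndufc1 transcripts are close copies whose reads may be split, so their levels are uncertain.

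Complex II links the citric acid cycle to the chain and has 4 subunits, all encoded in the nucleus. Sdha carries the flavin and Sdhb the iron-sulphur clusters, and Sdhc and Sdhd anchor them in the membrane. None of the 4 passed 2-fold in beta cells between treatments on the RPM scale. Sdha ran from 1.40 through 208 to 1345 RPM in DMSO beta cells and from 0 through 104 to 718 RPM in GNF4877 beta cells. It reached 100 RPM in 44 of 56 DMSO and 29 of 58 GNF4877 beta cells, and the ranges overlap. The log2 ratio was -0.74, and it was -1.07 without hormones and -1.76 by mean log2 values.

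Sdhb had means of 242 ± 184 and 164 ± 131 RPM in DMSO and GNF4877 beta cells, a log2 ratio of -0.56. Sdhc had means of 300 ± 185 and 364 ± 291 RPM, and Sdhd of 189 ± 137 and 217 ± 205 RPM, ratios of 0.28 and 0.20. These differences are smaller than the SD over cells. In alpha cells between treatments Sdhc stood at 0.96, and 1.27 without DMSO cell 33.

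All 4 genes of complex II were lower in alpha than in beta cells under both treatments on the RPM scale, and without hormones all 4 were under DMSO and 3 of 4 under GNF4877. The median ratio was -1.41 under DMSO and -0.95 under GNF4877, and -1.01 and -0.66 without hormones. For all genes that averaged 10 RPM or more it was -0.54 and -0.33, and -0.04 and 0.01 without hormones. Sdhd stood at 0.871, 57.9, 102, 2.96 and 56.99 RPM in DMSO alpha cells 33, 67, 89, 90 and 94, against a beta median of 171 RPM, and at a median of 38.4 RPM in GNF4877 alpha cells, against 180 RPM in beta cells. All 5 DMSO alpha cells lie below the beta median. The log2 ratios were -2.08 and -1.74. At the highest hormone limit tried the first was -0.49. Between treatments in alpha cells the ratio of 0.54 was 1.09 without DMSO cell 89.

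Sdha in DMSO alpha cells rests on cell 94, at 475 RPM, with 44.4, 2.35, 3.12 and 38.5 RPM in cells 33, 67, 89 and 90. In GNF4877 alpha cells its median was 1.87 RPM and its highest value 688 RPM, in cell 85. Its alpha over beta ratio was -1.37 under DMSO and -3.67 without cell 94, and -1.14 under GNF4877 and -2.005 without cell 85. Its ratio between treatments in alpha cells was -0.51, 1.79 without cell 94 and -1.37 without cell 85. Sdhc stood at -1.45 and -0.76 and Sdhb at -0.71 and -0.06 in alpha over beta cells of DMSO and GNF4877, with -1.06 for Sdhb under DMSO without cell 89. Sdhc under DMSO was -0.49 with the highest hormone limit tried.

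Complex III moves electrons from ubiquinol to cytochrome c. None of its 7 genes passed 2-fold in beta cells between treatments on the RPM scale, and Uqcr11 did without hormones, at -1.20. Their median ratio was 0.13, and 0.03 without hormones. Uqcrc1, a core protein, had the most reads, with 237 ± 180 RPM in DMSO and 361 ± 340 RPM in GNF4877 beta cells, a ratio of 0.60. Uqcrq averaged 190 ± 90.6 and 165 ± 92.4 RPM. Uqcrfs1, the Rieske iron-sulphur protein, and Uqcrh, the hinge protein, had the fewest, with 50.5 and 75.3 RPM in DMSO beta cells, and ratios of 0.13 and 0.42. The highest Uqcr11 value, 1026 RPM, was in DMSO cell 48, of low listed share.

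All 7 were lower in alpha than in beta cells by mean RPM under both treatments, and on the scale without hormones 4 of 7 were under each. The medians were -0.56 under DMSO and -0.50 under GNF4877, and -0.17 and -0.05 without hormones. For all genes that averaged 10 RPM or more they were -0.54 and -0.33, and -0.04 and 0.01 without hormones. Uqcrq stood at 76.7, 56.3, 33.3, 76.99 and 34.7 RPM in DMSO alpha cells 33, 67, 89, 90 and 94, against a beta median of 188 RPM. All 5 lie below that median. Its ratios were -1.76, -0.91 with the highest hormone limit tried, and -0.99, -1.10 without GNF4877 cell 34. Uqcr11 was 2-fold lower in alpha cells under DMSO, at -1.30, and at -0.67 with the highest hormone limit tried, and stood at -0.16 under GNF4877. Between treatments in alpha cells it was 1.11, and 0.53 at that limit, with means of 64.2 ± 38.3 and 139 ± 74.2 RPM and overlapping ranges, and 0.91 without DMSO cell 89. Uqcrfs1 and Uqcrh, at -0.56 and -0.89 under DMSO, were -1.21 without cell 89 and -1.36 without cell 67, and the ratio of Uqcrh between treatments in alpha cells, 0.97, was 1.45 without cell 67. Uqcrb and Uqcrc2 did not pass 2-fold in any comparison.

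Complex IV reduces oxygen, and several of its subunits have isoforms used in particular tissues. Cox6a2, the isoform of heart and skeletal muscle, was the one member 2-fold or more higher in treated beta cells. It was read in 29 of 56 DMSO beta cells (51.8%, 95% Clopper-Pearson interval 38.03% to 65.3%) and 33 of 58 GNF4877 beta cells (56.9%, 43.2% to 69.8%). Its values ran from 0 through a median of 1.43 to 243 RPM under DMSO and from 0 through 0.818 to 1186 RPM under GNF4877. The share of cells and the median barely differ, and the difference lies in the cells with most reads: 8 DMSO and 17 GNF4877 beta cells reached 100 RPM. The means of 36.3 ± 59.9 and 148 ± 263 RPM gave a log2 ratio of 2.002, a 4.01-fold higher mean, and 1.97 without hormones. For Cox6a2 the difference between the means of log2 values was smaller, 0.67, and with the highest hormone limit tried the log2 ratio was 1.38.

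The treated beta cells with most Cox6a2 had lower beta cell markers. In the 17 GNF4877 beta cells that reached 100 RPM the median sum of beta cell markers was 2899 RPM, beside 21989 RPM in the other 41, and in DMSO beta cells it was 8784 RPM in the 8 and 17210 RPM in the other 48. Alpha cell markers were lower in the 17 as well, with medians of 1096.5 and 1928 RPM, and PP cell markers had means of 2448 and 58.9 RPM and medians of 3.43 and 2.33 RPM. Of the 17, 9 were among the 10 GNF4877 beta cells with Ins1 below the highest limit tried, where Cox6a2 averaged 429 ± 271 RPM, beside 89.97 ± 223 RPM in the other 48. In DMSO beta cells it averaged 47.7 ± 87.5 RPM in the 7 below that limit and 34.7 ± 55.98 RPM in the other 49.

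No read of Cox6a2 was listed in the 5 DMSO alpha cells. It was read in 5 of 18 GNF4877 alpha cells (27.8%, 9.69% to 53.5%), at 328 RPM in cell 27 and at 3.16 RPM or less in the others. Its alpha over beta ratio under GNF4877 was -2.94, and -6.83 without cell 27. The reads fall on 2 transcripts of the table, with means of 18.97 and 17.3 RPM in DMSO beta cells and 81.5 and 66.98 RPM in GNF4877 beta cells. Reads common to both may be split between them, so the 2 do not show the difference separately.

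Its counterpart Cox6a1, the isoform of most other tissues, did not differ in this way. It was read in 55 DMSO and 57 GNF4877 beta cells, with means of 225 ± 118 and 218 ± 97.2 RPM and a ratio of -0.05. In alpha cells its means were 115 ± 87.2 and 149.9 ± 118 RPM, and its alpha over beta ratio under DMSO, -0.96, was -1.43 without cell 33.

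Cox4i2, the isoform of lung, was the one member 2-fold or more lower in treated beta cells. It was read in 16 of 56 DMSO and 9 of 58 GNF4877 beta cells, with means of 28.5 ± 130 and 9.63 ± 30.7 RPM and a median of 0 in both. Most cells of either treatment had no read and the rest overlap. The log2 ratio of -1.47 rests on DMSO cell 23, at 944 RPM, and was -0.27 without it, and -0.33 with a hormone limit of 100 RPM. Cell 23 had 35676 RPM of beta cell markers and none of mesenchymal ones, with 104 RPM of immune markers, the most of any DMSO beta cell, and 1168 RPM of duct markers. In alpha cells Cox4i2 was read in 2 of 5 DMSO cells and 1 of 18 GNF4877 cells, with 2.37 RPM at most. The alpha over beta ratios were -4.43 and -3.23, the former -3.24 without cell 23. With a hormone limit of 100 RPM the DMSO ratio had the other sign, as the alpha class then holds DMSO cell 29, with 235 RPM of Cox4i2. By mean log2 values they were -0.88 and -0.76. Cox4i1, the widespread isoform, had means of 487 ± 242, 599 ± 258, 255 ± 121 and 408 ± 150 RPM in DMSO beta, GNF4877 beta, DMSO alpha and GNF4877 alpha cells, and an alpha over beta ratio under DMSO of -0.93, -1.22 without cell 33.

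Cox5a, which has no tissue isoform in this set, passed 2-fold between treatments in alpha cells and not in beta cells. Its values ran from 0 through 50.2 to 344 RPM in DMSO beta cells and from 3.08 through 105 to 416 RPM in GNF4877 beta cells. It reached 100 RPM in 12 of 56 and 31 of 58 cells, and the ranges overlap. The means of 68.1 ± 62.1 and 126 ± 77.2 RPM gave a log2 ratio of 0.88.

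In DMSO alpha cells Cox5a stood at 40.1 and 9.39 RPM in cells 33 and 67 and had no read in cells 89, 90 and 94. GNF4877 alpha cells ran from 0 through 14.1 to 202 RPM. All 5 DMSO cells lie within the GNF4877 range and below the DMSO beta median. The log2 ratio between treatments was 1.82, 3.52 without DMSO cell 33 and 1.41 without GNF4877 cell 42. It was 0.80 with the highest hormone limit tried. The alpha over beta ratios were -2.67 under DMSO and -1.72 under GNF4877, and under DMSO -4.37 without cell 33.

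Cox5b, its partner in the complex, went the other way in beta cells, at -0.33, and stood at 0.74 in alpha cells. It was lower in alpha than in beta cells under DMSO, at -1.60, and stood at -0.54 under GNF4877. The DMSO alpha values of Cox5b were 148, 37.6, 11.4, 82.9 and 33.4 RPM in cells 33, 67, 89, 90 and 94. Without cell 33, the highest, -1.60 would be lower still, and 0.74 would be higher and pass 2-fold. Cox7b, Cox8a and Cox7a2 had beta cell ratios of -0.00, -0.17 and 0.32. Alpha over beta ratios were -1.27 and -1.05 for Cox7b, -1.57 and -0.91 for Cox8a, and -0.63 and -1.11 for Cox7a2, in DMSO and GNF4877 order. Without hormones Cox7b was -0.72 and -0.67 and Cox7a2 under GNF4877 -0.80. Under GNF4877 Cox7b was -0.95 without beta cell 41 and Cox8a -1.11 without cell 42. Cox7c and Cox6c were within 2-fold throughout. Cox7a2l2 is a close copy of Cox7a2 with values near it, and reads may be split between them. Cox7a1, Cox7b2 and Cox6b1, also on the list of tissue isoforms, were not in the data under these symbols. Of the 10 listed isoforms in the data, 4 were 2-fold lower in alpha cells under each treatment, where 26.7% of all genes were under DMSO and 19.1% under GNF4877. None was higher under DMSO, where 7.08% of all genes were, and 1, Cox6b2, under GNF4877, where 7.79% were.

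Among the genes taken by the rule that are not standing subunits, Cox4nb, a subunit of the membrane insertion complex of the endoplasmic reticulum, was the highest member in alpha over beta cells under DMSO, at 0.83, and stood at -0.49 under GNF4877. Its DMSO alpha values were 186, 0, 37.4, 145 and 40.3 RPM, all within the DMSO beta range of 0 to 256 RPM. Without DMSO cell 67 the ratio was 1.15, and without GNF4877 cell 85 the second was -1.22 and the ratio between treatments in alpha cells, -0.97, was -1.70. Cox7a2l, a factor in supercomplex assembly, was at -1.56 under DMSO, and -2.29 without cell 89, and at -0.57 under GNF4877, and its ratio between treatments in alpha cells, 0.71, was 1.44 without cell 89. Atp5sl was at -2.12 and -1.91, read in 3 of 5 and 2 of 18 alpha cells, and -3.67 and -3.85 without DMSO cell 94 and GNF4877 cell 27. Its DMSO ratio was -0.12 with the highest hormone limit tried, and had the other sign with a limit of 100 RPM. Its ratio between treatments in alpha cells, 0.86, was 2.41 without the former and -1.08 without the latter. Atp5s and Ndufa4l2 had no read in DMSO alpha cells. Atp5s was read in 16 DMSO beta, 5 GNF4877 beta and 3 GNF4877 alpha cells. Ndufa4l2 was read in 7 DMSO beta cells, 2 GNF4877 beta cells and GNF4877 alpha cell 42 alone, the alpha cell that held the mesenchymal markers, and its beta cell ratio, -0.92, was -1.23 without GNF4877 cell 17.

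Complex V makes ATP. Its F1 part holds the catalytic sites and its c ring turns in the membrane. Of the 5 F1 genes none passed 2-fold in beta cells, with a median ratio of 0.33, and 0.28 without hormones. Atp5b, the catalytic beta subunit, had the most reads of all complex V genes, with 1043 ± 527 RPM in DMSO and 1266 ± 741 RPM in GNF4877 beta cells. Atp5d was the highest of the 5, with values from 0 through 101 to 483 RPM in DMSO and from 0 through 194 to 981 RPM in GNF4877 beta cells, overlapping ranges and a log2 ratio of 0.83. In alpha cells its ratio was 0.83 too, with means of 79.4 ± 52.6 and 141 ± 103 RPM, and 1.10 without DMSO cell 33. Atp5a1, Atp5c1 and Atp5e stood at 0.33, 0.49 and -0.05 in beta and at -0.11, 0.37 and -0.24 in alpha cells.

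In alpha over beta cells Atp5b was the 1 F1 gene past 2-fold, at -1.20 under DMSO, -0.64 without hormones, and -0.50 under GNF4877. It stood at 613, 230, 259, 654 and 506 RPM in DMSO alpha cells 33, 67, 89, 90 and 94, all below the beta median of 992 RPM and within the beta range. Between treatments in alpha cells its ratio was 0.99, and 1.16 without DMSO cell 90. Atp5a1 and Atp5c1 stood at -0.78 and -0.93 under GNF4877, and at -1.02 without cell 9 and -1.12 without cell 34, and Atp5c1 at -0.81 under DMSO, and -1.02 without cell 90.

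The c ring protein is encoded by 3 genes, which differed from each other. Atp5g1 ran from 0 through 597 to 1133 RPM in DMSO beta cells and from 0 through 350.4 to 1553 RPM in GNF4877 beta cells. The ranges overlap, and the log2 ratio of the means of 580 ± 293 and 394 ± 238 RPM was -0.56, while Atp5g2 and Atp5g3 stood at 0.21 and 0.14. In DMSO alpha cells Atp5g1 stood at 118, 159.6, 27.04, 136 and 128 RPM in cells 33, 67, 89, 90 and 94. All 5 lie far below the DMSO beta median and within the range of its cells. GNF4877 alpha cells ran from 0 through 123 to 496 RPM.

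The alpha over beta ratios of Atp5g1 were -2.34 under DMSO and -1.36 under GNF4877, and -1.69 and -1.003 without hormones. No single cell moved the first above -2.09 or the second above -1.28. Atp5g2 stood at -0.65 and -0.12 and Atp5g3 at -0.80 and -0.84, the latter -1.07 without cell 85. Atp5g1 thus had the lowest alpha over beta ratio of the 3 under both treatments. On the scale without hormones the same order holds for Atp5g1, with -0.18 and 0.21 for Atp5g2 and -0.21 and -0.52 for Atp5g3.

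The other complex V genes are Atp5f1, Atp5h, Atp5hl1, Atp5i, Atp5j, Atp5j2, Atp5l and Atp5o, of the stalk and membrane parts. Atp5f1 had 728 ± 355 RPM in DMSO and 787 ± 480 RPM in GNF4877 beta cells. None passed 2-fold between treatments. In alpha cells Atp5l was 2-fold lower than in beta cells under DMSO, at -1.03, and Atp5f1 under GNF4877, at -1.18, and -0.81 without hormones. Atp5f1 under DMSO, -0.85, was -1.18 without cell 94, and Atp5hl1, -0.67, was -1.05 without cell 33. Atp5hl1, a close copy of Atp5h with 15.03 RPM in DMSO beta cells, may share reads with it.

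**Figure D3:**
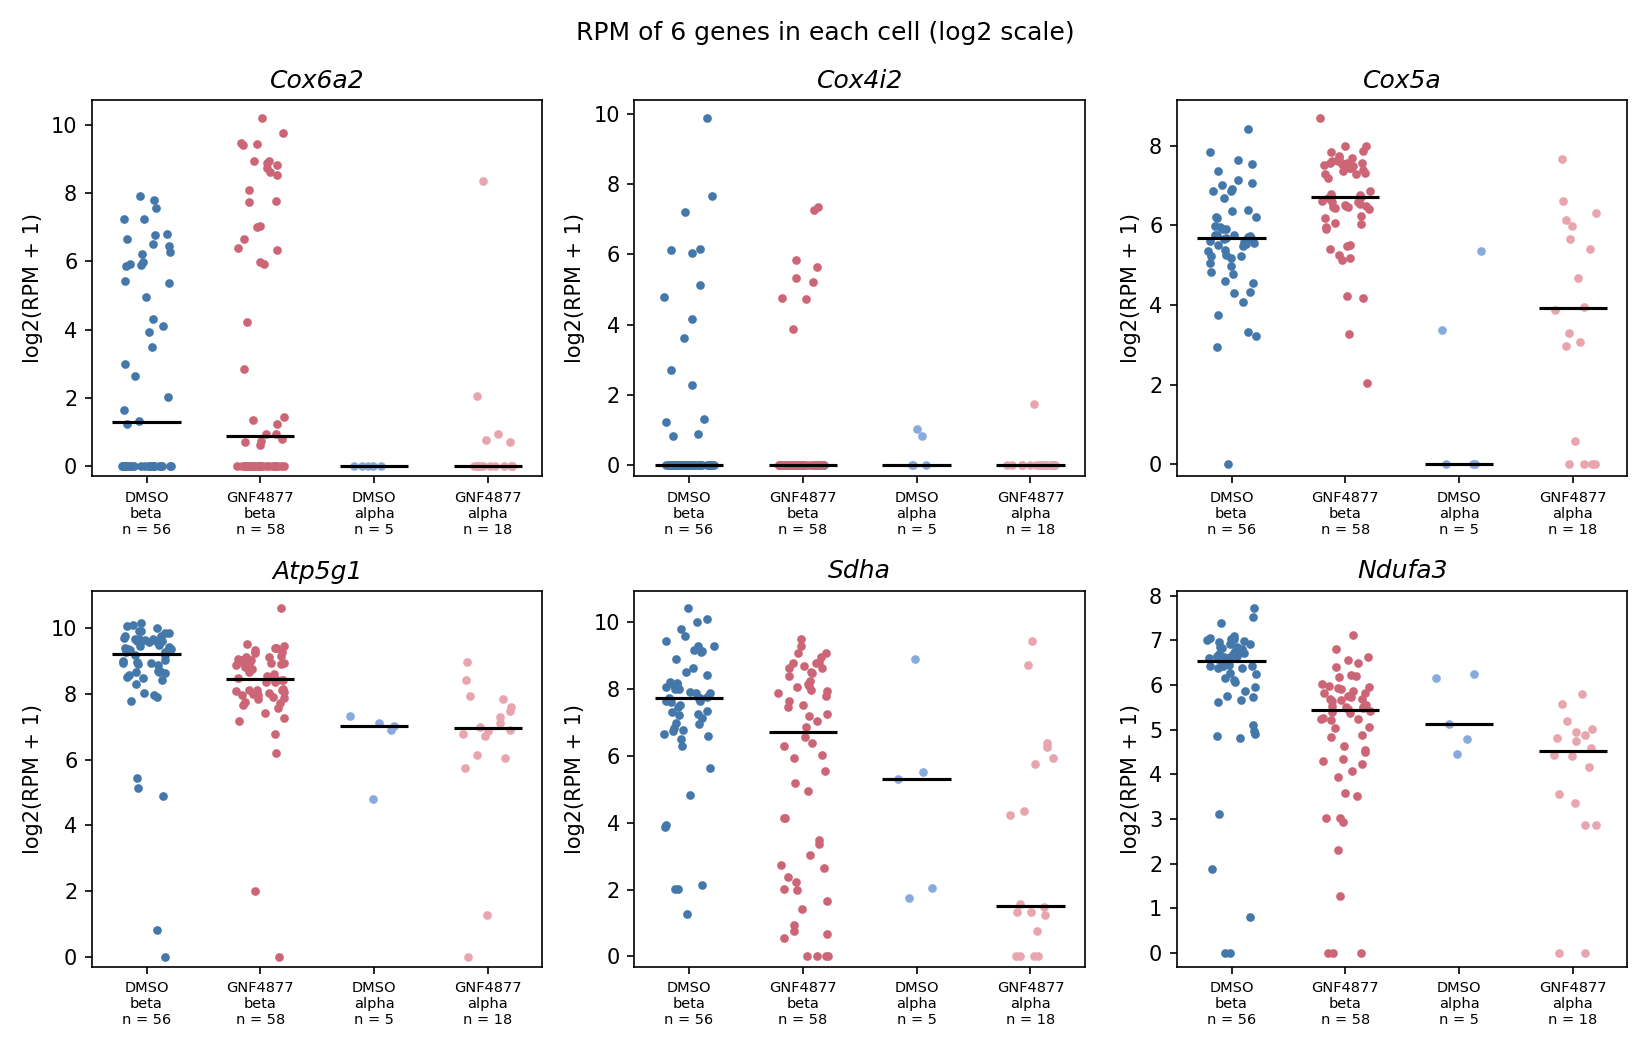
RPM of 6 genes in each cell, as log2 of RPM plus 1, for beta and alpha cells of each treatment. Points are cells and lines are medians. Cox6a2 and Cox4i2 are at 0 in many cells, and the median of Atp5g1 is 123 RPM in GNF4877 alpha and 350.4 RPM in GNF4877 beta cells.

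Other genes of the pathway and of mitochondria, from lists, are given for comparison. Of 9 genes for electron carriers, 2 were higher and 1 lower in treated beta cells, where 6.48% and 10.5% of all genes were: Gpd2, the mitochondrial glycerol phosphate dehydrogenase, at 1.60, Coq10a at 1.10 and Coq10b at -1.0045. In alpha over beta cells 7 were lower under DMSO, where 26.7% of all genes were, and 5 under GNF4877, where 19.1% were, and none was higher. Cycs, cytochrome c, stood at -1.24 and -1.81, and Cyc1, the cytochrome c1 of complex III, which the symbol rule does not take, at -2.33 and -1.815. Etfdh stood at -5.09 under DMSO and -1.02 under GNF4877.

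Of 31 assembly factors 2 were higher and 1 lower in treated beta cells, beside 6.48% and 10.5% of all genes: Ndufaf1 at 1.76, Ttc19 at 1.54 and Sco1 at -1.14. The median was -0.03. In alpha over beta cells 16 were lower and 2 higher under DMSO, where 26.7% and 7.08% of all genes were, with a median of -1.06, and 15 lower and 1 higher under GNF4877, where 19.1% and 7.79% were, with a median of -0.82. Ndufaf4 was the lowest under DMSO, at -6.03, and stood at -3.12 under GNF4877.

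Of 17 citric acid cycle and pyruvate genes, Pc, pyruvate carboxylase, was lower in treated beta cells, at -2.33, where 10.5% of all genes were, and Dlat higher, at 1.24, where 6.48% were. The median was 0.26. In alpha over beta cells the median was -0.35 under DMSO and -0.64 under GNF4877, and 0.19 and -0.23 without hormones, so under DMSO its sign depends on the scale. Of 8 carriers of nucleotides and phosphate, Ucp2, an uncoupling protein, was higher in treated beta cells, at 1.82, where 6.48% of all genes were, and none was lower, where 10.5% were, with means of 54.8 and 196 RPM, and the median was 0.12, and -0.03 without hormones. Of 18 glycolysis genes 3 were higher in treated beta cells, where 6.48% of all genes were, Pfkp at 1.35, Eno1 at 1.04 and Ldha at 1.01, and 1 was lower, where 10.5% were, Hk1, which was read in 1 DMSO and no GNF4877 beta cell. The median was 0.50. In alpha over beta cells 9 were lower and 2 higher under DMSO, where 26.7% and 7.08% of all genes were, and 13 lower and 2 higher under GNF4877, where 19.1% and 7.79% were, with medians of -0.98 and -1.22.

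Of 13 regulators of mitochondrial biogenesis 2 were higher and 3 lower in treated beta cells, where 6.48% and 10.5% of all genes were, with a median of -0.43: Ppargc1a at 1.22 and Gabpb1 at 1.05, and Myc at -1.57, Gabpa at -1.36 and Tfb2m at -1.18. Most were read at low levels, such as 15.05 RPM for Ppargc1a in GNF4877 beta cells. In treated alpha cells 7 were higher and 1 lower than in DMSO alpha cells, where 18.5% and 12.4% of all genes were.

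Genes for ribosomal proteins give a second view of the small DMSO alpha group. The 83 cytosolic ribosomal protein genes had a median alpha over beta ratio of -1.24 under DMSO, with 58 lower, where 26.7% of all genes were, and 0.00 under GNF4877, with 2 lower, where 19.1% were. On the scale without hormones the medians were -0.77 and 0.36. In alpha cells 59 were higher under GNF4877 than under DMSO, where 18.5% of all genes were, and in beta cells 1 was higher and 1 lower, where 6.48% and 10.5% were. The 70 mitochondrial ribosomal protein genes stood at -1.10 and -0.85 in alpha over beta cells, with 39 lower and none higher under DMSO, where 26.7% and 7.08% of all genes were, and 32 lower and 2 higher under GNF4877, where 19.1% and 7.79% were. In treated beta cells 2 were higher and none lower, where 6.48% and 10.5% were. Between treatments in alpha cells 28 were higher and 8 lower under GNF4877, where 18.5% and 12.4% of all genes were.

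Promoters are shown for members lower in alpha than in beta cells under both treatments. RefSeq promoters on GRCr8, from 250 bases before to 50 after the gene start, were found for 74 members, and 4 motifs were searched on both strands, with overlaps counted. The NRF1 letters GCGCA, any base and GCGC were in 14 of 74 (18.9%), beside 4.71% of 27457 promoters. CCGGAAG, of ETS factors such as GABP, was in 21 (28.4%, beside 9.22%), AAGATGGC, of YY1, in 16 (21.6%, beside 3.44%) and GGGCGGG, of SP1, in 19 (25.7%, beside 24.2%). The NRF1 letters were in none of 14 complex IV promoters and in 5 of 15 of complex V. A match is a description and not a site. The 250 bases before the start are given for Sdha (plus strand, chr1:30764303-30764552), with 3 NRF1 matches, the last running past the start, for Ndufv3 (plus strand, chr20:9613536-9613785), with 1 NRF1 and 2 SP1 matches, for Sdhd (minus strand, chr8:59850642-59850891), with ETS and SP1 matches, and for Cox6a2 (minus strand, chr1:192219717-192219966), with none. Capitals mark the matches.
Sdha: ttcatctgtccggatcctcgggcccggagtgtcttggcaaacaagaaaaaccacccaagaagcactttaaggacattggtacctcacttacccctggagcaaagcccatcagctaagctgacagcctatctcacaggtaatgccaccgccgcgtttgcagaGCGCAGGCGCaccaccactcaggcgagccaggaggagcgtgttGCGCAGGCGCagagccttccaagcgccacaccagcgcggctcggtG
Ndufv3: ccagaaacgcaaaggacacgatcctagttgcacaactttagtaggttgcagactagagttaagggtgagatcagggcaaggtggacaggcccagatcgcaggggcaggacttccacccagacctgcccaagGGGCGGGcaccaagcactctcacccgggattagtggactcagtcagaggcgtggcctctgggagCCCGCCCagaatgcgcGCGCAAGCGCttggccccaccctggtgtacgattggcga
Sdhd: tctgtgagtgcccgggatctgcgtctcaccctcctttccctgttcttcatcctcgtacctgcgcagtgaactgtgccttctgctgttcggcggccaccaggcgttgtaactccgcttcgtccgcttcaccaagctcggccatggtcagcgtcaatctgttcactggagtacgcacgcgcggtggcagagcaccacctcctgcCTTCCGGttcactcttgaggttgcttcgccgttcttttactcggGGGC
Cox6a2: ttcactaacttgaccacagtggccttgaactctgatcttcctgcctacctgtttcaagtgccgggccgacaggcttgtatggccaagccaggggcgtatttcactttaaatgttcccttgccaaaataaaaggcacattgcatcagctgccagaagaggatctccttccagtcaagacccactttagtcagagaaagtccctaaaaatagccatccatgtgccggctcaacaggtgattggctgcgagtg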

How the data were processed

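The authors deposited RPM values (reads scaled to mapped reads) of 27586 transcripts in 170 cells. The submitters' notes name CASAVA 1.8.2, BWA 0.5.9 and SAMtools 0.1.19. Here values of 0.01, which stand for no read, were set to 0, and transcripts of a symbol were summed, giving 24113 genes. Doublets were not removed here, and the authors state that they kept only ports where a single cell was verified. Ratios used mean RPM plus 1. No test was run, since each treatment is 1 sample. Of the 87 members 78 were matched by accession and 9 by symbol or synonym to a RefSeq table of GRCr8. Members described are the 5 highest and 5 lowest ratios of each comparison among those read in 50% of cells or more of the higher group, the 2 highest and 2 lowest of each complex by mean RPM in DMSO beta cells, the 4 Sdh genes, those least often read, and lists of core, isoform, F1, c ring and non-subunit genes. A member that these choices would take is not reported here on its own, and remains in the counts, medians and sums over members. Other members, and the genes named from the lists of carriers, assembly factors, cycle, glycolysis, biogenesis, ribosome and marker genes, were chosen after their values were seen, as was the comparison of Cox6a2 with beta cell markers. Cytosolic ribosome genes start with Rpl or Rps, without Rps6k kinases and Rps19bp1. The members and lists were chosen with earlier results of these data known. The work used Python 3.11.15 with matplotlib 3.10.9, pandas 2.3.3, numpy 2.4.6 and scipy 1.17.1. The code for ratios was run on simulated beta cells with counting error alone, and planted differences well past 2-fold were recovered. The simulation held no other spread between cells and no alpha cells, so it does not bear on the ratios reported.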

Additional observations from a re-analysis of the deposited data

Results flagged for a closer look

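In the 5 DMSO alpha cells the gap between an end cell and its neighbour was divided by the whole range, for 54 genes and sums. At the limit used chance alone passes about 1 in 20 groups of normal values, and 9 of 54 passed. The 54 share the same 5 cells, and RPM values with zeros are not normal. The count can therefore not be set against that rate. The cause was not tested. DMSO cell 33, which also had 1672 RPM of Sst, was high for the complex IV sum (0.746 of the range), Cox5a (0.766) and Ndufv1 (0.838). DMSO cell 94 was high for Atp5sl (0.848), Ndufs4 (0.973) and Sdha (0.911). DMSO cell 89 was high for Cox7a2l (0.748) and Ndufs3 (0.729), and cell 90 was low for Cox8a (0.814).

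The alpha over beta ratio of Ndufa4l2 was higher under GNF4877 than under DMSO, and DMSO minus GNF4877 was -2.88. The difference was not tested. No read was listed in DMSO alpha cells, and the GNF4877 value rests on alpha cell 42.

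Cells outside the comparisons also held reads of the 87 genes: 13641 RPM in the 1 GNF4877 cell with both hormones and a mean of 7489 ± 5212 RPM in the 7 GNF4877 cells with neither.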

How the results depend on the processing

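No paired analysis was possible because the samples share only port numbers and each treatment is 1 sample. Each setting was changed in turn. A value counted as moved where it differed 1.5-fold or more, a limit chosen here since there are no replicates, and counts of genes move easily by it. Of 4076 log2 ratios and shares of cells read for 54 genes under these settings 3742 were the same, 326 moved, and 8 were log2 ratios of 2-fold or more that changed sign. Among all 3644 log2 ratios, those below 2-fold included, 209 had the other sign, and 60 of these had moved. Of 875 that were 2-fold or more as reported, 99 were below it or had the other sign. Where a value moved, the cause was not tested.

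In beta cells GNF4877 over DMSO, the number of members 2-fold lower, 1 as reported, was 4 with a pseudocount of 0.1 RPM, 0 with 10 RPM, 4 by difference of mean log2 values, 2 with a hormone limit of 100 RPM and with the highest limit tried, 7 without hormones, 2 with cells thinned to 100000 reads, 4 without cells with a Ccnb1 read, and 2 without cells under 4000 genes. Without cells with a Ccnb1 read, 40 of 58 GNF4877 beta cells and 55 of 56 DMSO beta cells remained. The number higher, 1 as reported, was 2 by difference of mean log2 values. Leaving out each cell in turn gave 0 to 2 lower.

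In alpha cells GNF4877 over DMSO, the number higher, 9 as reported, was 5 among members of 10 RPM or more, 5 by mean log2 values, 4 with a hormone limit of 100 RPM, 17 without cells with Sst or Ppy of 1000 RPM, and 7 to 18 when each cell was left out. The number lower, 4 as reported, was 2 with a pseudocount of 10 RPM, 28 by mean log2 values, 9 with a hormone limit of 100 RPM, 8 without hormones, and 2 to 6 when each cell was left out. The ratio of Ndufs1 was -0.10 by mean log2 values. The hormone limit of 100 RPM does not test the alpha cells reported: the DMSO class then holds cells 33 and 89 and cell 29, which had 163 RPM of Gcg, 45020 RPM of Ppy and 9142.5 RPM of mesenchymal markers, and the GNF4877 class loses cells 27 and 85 and takes in cells 5 and 62, which passed for neither hormone. Cox5a was then -0.16 and Ndufs4 0.92. Leaving out each cell in turn put Ndufs3 between -2.23 and 0.11 and Ndufs4 between -1.65 and 2.78. The median over members had no stable sign, from -0.32 by mean log2 values to 0.28 with 1 cell left out. By mean log2 values the median of all genes that averaged 10 RPM or more was -0.63.

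In alpha over beta cells under GNF4877, the number higher, 2 as reported, was 0 with a pseudocount of 10 RPM, among members of 10 RPM or more and by mean log2 values, 1 with thinned cells, and 0 upward when each cell was left out. The number lower, 21 as reported, was 47 by mean log2 values and 11 without hormones. Ndufa4l2 lay between -0.41, without cell 42, and 1.86 when each cell was left out. Under DMSO the number higher, 0 as reported, was 1 by mean log2 values, 2 with a hormone limit of 100 RPM, 2 without hormones and up to 1 when each cell was left out. The number lower, 28 as reported, was 18 with a hormone limit of 100 RPM, 18 with the highest limit tried and 18 without hormones. At the limit of 100 RPM, with cell 29 in the class, Atp5sl was 0.93 and Cox4i2 2.31, and Cox4i2 stood at 235 RPM in cell 29 and at 0 and 1.04 RPM in cells 33 and 89. The medians kept their sign, from -1.07 to -0.30 under GNF4877 and from -0.96 to -0.22 under DMSO, and those of beta cells GNF4877 over DMSO ran from -0.09 to 0.07. The DMSO alpha sum was 14282 without hormones.

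Alternatives chosen after the data were seen left out cells with under 20% of reads on listed transcripts. The beta cell number lower was then 2, and 3 without hormones too. Without hormones and those cells the alpha cell number lower was 8, the alpha over beta number lower 11 under GNF4877 and 18 under DMSO, the number higher under DMSO 1, and the DMSO alpha sum 14282.

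The data hold 1 sample of each treatment and 5 DMSO alpha cells, so a treatment effect, a chip effect and chance cannot be told apart. The classes rest on 2 hormones. Cells are not replicates, and doublets were not removed beyond the authors' check of ports for single cells. RPM is a share, so a gene's value depends on what other transcripts take, and the scale without hormones meets this only in part. Reads of close copies were not separated. Proteins, oxygen use and ATP were not measured, and transcript lengths were not used.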

Other observations

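The 22 DMSO cells that passed for both hormones had a mean sum of the 87 genes of 12142 ± 1798 RPM, with values from 8396 through a median of 12132 to 16503, between the means of DMSO alpha and DMSO beta cells. The 3 DMSO cells that passed for neither had 102, 9236 and 10484 RPM, the first with under 20% of its reads on listed transcripts. The 7 GNF4877 cells that passed for neither ran from 342 through a median of 7622 to 13693 RPM, and 2 of them had under 20% of reads on listed transcripts. Without those 2 the mean was 10245 ± 2739 RPM.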
